A study of Mus musculus with 6 samples.

Results

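The genes described are 10 members of the unfolded protein response and the integrated stress response, Eif2ak3, Atf4, Atf3, Ddit3, Trib3, Chac1, Asns, Xbp1, Hspa5 and Herpud1. They were chosen by symbol, and all 10 were found among the 35049 genes of the laser-captured libraries and the 37991 genes of the punched libraries. RNA came from the substantia nigra pars compacta of mice, the midbrain nucleus whose dopaminergic neurons project to the striatum, in 6 groups of 1 library each that form 3 pairs. The first pair compared En1+/- mice, in which 1 allele of the homeobox gene Engrailed 1 is intact, with wild type mice. Both were aged 6 weeks, and the labels name no treatment. The second pair used wild type mice aged 8 weeks and set the side infused with Engrailed 2 protein (En2) by osmotic pump for 7 days against the contralateral side. The cells of both pairs were neurons stained for tyrosine hydroxylase and cut out by laser. The third pair used punches 1 mm wide from wild type mice aged 8 weeks that had all received 6-hydroxydopamine (6-OHDA), a toxin that enters dopaminergic neurons through their transporters. After 30 min they received either bacterially made En2 (300 ng) with 3 µg of colominic acid or a saline vehicle. No punch without 6-OHDA was analysed here, so the pair compares additions to the lesion and does not measure the lesion. Because the added solution held colominic acid as well as En2, their contributions cannot be told apart. The deposited tables of the infusion pair carry En1 in their headers where the labels name En2; the labels were followed. The sources used here do not give the number of animals per library, or whether the 2 sides came from the same mice.

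When unfolded proteins gather in the endoplasmic reticulum (ER), sensors in its membrane, among them the kinase PERK (encoded by Eif2ak3) and the nuclease IRE1, become active. PERK phosphorylates the translation factor eIF2 alpha, which slows protein synthesis while translation of the Atf4 mRNA goes up, and other kinases reach the same factor when amino acids run short, haem is lacking or viral RNA is present. IRE1 splices the Xbp1 mRNA, and the spliced form encodes a transcription factor for ER chaperones and degradation genes. In cultured dopaminergic cells 6-OHDA is known to set off this response. Because the response is set largely by phosphorylation, translation and splicing, mRNA levels show only a share of it.

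The promoters with an exact match to a searched stress element are shown first, from RefSeq on GRCm38.p6, with matches in capitals. Each runs from 250 bases before to 50 bases after the annotated start and is read 5′ to 3′ on the gene's strand. The window of Atf3 is shown because this gene has the largest ratio among the members in the punched pair, that of Chac1 because it carries the same element, and those of Herpud1 and Hspa5 because they hold ER stress elements.
Atf3, chr1:191183284-191183583, minus strand: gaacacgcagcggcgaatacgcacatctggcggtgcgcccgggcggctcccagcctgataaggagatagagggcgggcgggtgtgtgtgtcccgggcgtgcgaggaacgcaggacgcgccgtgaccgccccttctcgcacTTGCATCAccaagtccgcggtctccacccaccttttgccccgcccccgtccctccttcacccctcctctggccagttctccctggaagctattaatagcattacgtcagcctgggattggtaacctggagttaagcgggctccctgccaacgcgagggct
Chac1, chr2:119350992-119351291, plus strand: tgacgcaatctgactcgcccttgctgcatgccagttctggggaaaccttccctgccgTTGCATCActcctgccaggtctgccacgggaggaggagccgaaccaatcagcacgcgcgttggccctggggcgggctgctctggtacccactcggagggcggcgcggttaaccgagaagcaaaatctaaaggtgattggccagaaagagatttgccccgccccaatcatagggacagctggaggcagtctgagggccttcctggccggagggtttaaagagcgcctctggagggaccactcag
Herpud1, chr8:94386179-94386478, plus strand: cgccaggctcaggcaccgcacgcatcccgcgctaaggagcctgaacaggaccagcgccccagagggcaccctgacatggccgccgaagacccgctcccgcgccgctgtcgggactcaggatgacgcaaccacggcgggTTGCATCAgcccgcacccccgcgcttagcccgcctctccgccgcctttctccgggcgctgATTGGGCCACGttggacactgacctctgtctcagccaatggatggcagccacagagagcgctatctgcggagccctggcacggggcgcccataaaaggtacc
Hspa5, chr2:34771840-34772139, plus strand: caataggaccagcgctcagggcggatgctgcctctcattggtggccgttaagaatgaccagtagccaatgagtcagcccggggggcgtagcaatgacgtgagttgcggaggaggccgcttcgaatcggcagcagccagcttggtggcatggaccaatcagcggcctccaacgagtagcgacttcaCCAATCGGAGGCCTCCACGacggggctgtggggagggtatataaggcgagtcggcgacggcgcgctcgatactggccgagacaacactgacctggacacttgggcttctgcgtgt

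In Atf3, Chac1 and Herpud1 the capitals include TTGCATCA, one form of the C/EBP-ATF response element that ATF4 binds together with C/EBP proteins. In Atf3 the match begins 110 bases before the start, in Herpud1 112 and in Chac1 193. This element was found in 251 of 27025 promoters of the same length, or 0.929%, searched on both strands. The second stretch of capitals in Herpud1 is the ER stress element II (ATTGGNCCACG), which 10 promoters hold, or 0.0370%. The capitals in Hspa5 mark the ER stress element I (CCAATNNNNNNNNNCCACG), which 35 promoters hold, or 0.130%. Both ER stress elements end in CCACG and are known binding elements of ATF6 and XBP1. All 10 members had a promoter in the table. None of the 10 windows held the exact letters TGACGTGG, the element for XBP1 and ATF6 present in 0.607% of promoters. The same holds for the exact letters TGACGTCA, the full cyclic AMP response element present in 1.88%. These are matches of letters and not measured binding. Other forms of these elements, and sites outside the window, were not searched, so a promoter without a match may still hold a stress element.

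Deposited counts summed to 15927206 to 21332308 per library. Those of the captured libraries are sums over transcripts, in which a read counts for every transcript it overlaps, and 59.1% to 75.1% of them came from mitochondrial genes or ribosomal RNA. With 1 transcript kept per gene, the most-read one, 1510189 to 3272409 counts stood outside those genes, against 15927153 and 19044603 in the punches, which were counted per gene. A member such as Chac1 therefore rests on 15 to 33 reads in the captured libraries and on 198 and 244 in the punches. Levels are given as CPM, counts per 1000000 reads outside those genes, and, to compare genes, per kilobase of the most-read transcript. Although the cells were captured by staining for tyrosine hydroxylase, 10 oligodendrocyte genes summed to 19302 to 28523 CPM in these libraries and 10 dopaminergic genes to 8755 to 10936 CPM. In the punches the dopaminergic genes summed to 550 CPM after 6-OHDA and 709 CPM after 6-OHDA then En2. As a check of labels, En1 stood at 51.0 CPM in wild type cells and 14.4 CPM in En1+/- cells (log2 ratio -1.70).

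Ratios are log2 of the second library over the first after scaling each pair by the median ratio over genes, with a 95% interval for counting error only. A rule of size asks for 20 reads in at least 1 library, a log2 ratio of 1 or more in either direction, and a counting interval without 0. With 1 library per group nothing was tested for significance and no difference has a replicate check. In bulk samples, fewer cells of a type and less RNA per cell cannot be told apart. To show how far captured libraries differ without either manipulation, the contralateral side was also set against the wild type cells. That description changes age, side and pump surgery too, and it shares 1 library with each of the captured pairs.

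Hspa5 and Atf4 led the 10 genes in every library on the per-kilobase scale. In wild type cells Hspa5 stood at 202 CPM per kilobase and Atf4 at 146, followed by Ddit3 at 56.5, Xbp1 at 45.4, Asns at 43.7, Herpud1 at 19.1, Chac1 at 13.4 and Eif2ak3 at 2.35. In the 6-OHDA punch the order was Hspa5 at 143, Atf4 at 112, Xbp1 at 40.9, Herpud1 at 35.1, Ddit3 at 32.7, Asns at 26.2, Atf3 at 11.4, then Eif2ak3, Chac1 at 7.59 and Trib3 at 0.402. Punch counts cover all exons of a gene but were divided by the length of the most-read transcript. For Xbp1 that transcript has 2129 bases and all exons together 3248, and for Atf3 1984 and 2154. The punch order therefore depends on the length used. With 1 library per group, no neighbours in these orders can be said to differ beyond the spread between replicates. The clearest difference between captured cells and punches concerned Atf3, and these libraries also differed in 6-OHDA treatment and depth. Atf3 had 0 reads in each captured library and stood at 22.6 and 91.2 CPM in the punches. Trib3 had 0 reads in the captured libraries, apart from 1 read on the contralateral side, and 13 and 25 reads in the punches. Its punch levels of 0.816 and 1.31 CPM lie close to the captured limits of 0.917 to 1.99 CPM at 3 reads, so a Trib3 difference is not shown. A count of 0 allows an Atf3 level of up to 1.99 CPM in wild type cells, 0.917 in En1+/- cells, 1.57 contralaterally and 1.30 on the infused side.

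**Figure D1:**
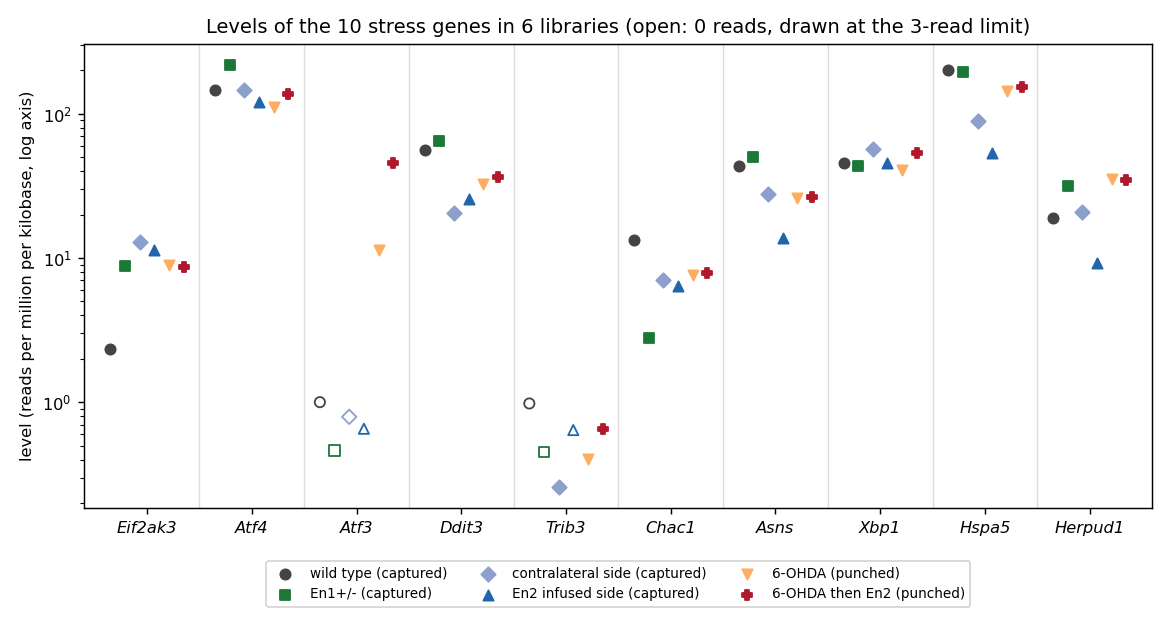
Level of each member in CPM outside mitochondrial and ribosomal RNA genes, per kilobase of transcript (log axis), in the 6 libraries; open symbols stand for 0 reads and are drawn at the limit of 3 reads. Hspa5 and Atf4 are the highest pair in every library, and Atf3 has reads in the punched libraries only.

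In the punches, Atf3 was the 1 member past the rule. Atf3, a transcription factor of the ATF family induced by many kinds of stress and by axon injury, had 360 reads after 6-OHDA and 1736 after 6-OHDA then En2, or 22.6 and 91.2 CPM. The library with En2 was the higher, by a log2 ratio of 2.03 (1.87 to 2.20), which is 4.10-fold (3.66 to 4.61). Per kilobase of the most-read transcript the gene moved from 11.4 to 45.9. By that scale it went from place 7 to place 4 among the 10, an order that depends on the length used. Of all 15747 genes measured in this pair, 2.17% had a higher ratio. The share of measured genes past the rule was 4.66% higher and 1.23% lower, and of the 10 members 1 was higher and 0 lower. In the authors' deposited table Atf3 has an adjusted p of 1.16e-14 with the fold 4.10, made without replicates, and the adjusted p is 1 for the other 9 members. Atf3 lies at chromosome 1, 191170296 to 191218039 on the minus strand of GRCm38 (ENSMUSG00000026628), and a small gene, Gm24748, lies within it without sharing exons.

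Genes of other cell types moved in the same pair. A list of 10 neutrophil genes summed to 17.5 CPM after 6-OHDA, where S100a8, Retnlg, Ly6g, Mmp8 and Ngp had 0 reads, and to 205 CPM after 6-OHDA then En2, where all 10 had reads. Of these, 8 were measured and 8 were past the rule, all higher. S100a8, S100a9, Cxcr2, Retnlg and Mmp8 reached the rule's minimum of reads only in the library with En2. For these genes, being measured all but fixed the direction. Csf3r (102 and 494 reads), Mmp9 (40 and 103 reads) and Lcn2 reached the minimum in both libraries. Lcn2, on that list and also made by reactive astrocytes, went from 132 to 1895 reads. The 12 microglia and macrophage genes summed to 325 and 390 CPM, of which Cd14 alone took 39.2 and 244 CPM. Of the 11 measured, 1 was higher and 4 lower by the rule, 2 had ratios above 0, and the median was -0.57, with Cx3cr1 at 54.9 and 8.72 CPM. Whether these cells carry the Atf3 reads was not tested.

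The genes known to act around Atf3 stood closer together. Atf4, the transcription factor at the centre of the integrated stress response and an activator of Atf3, had 3087 reads after 6-OHDA and 4493 with En2 added, a log2 ratio of 0.31 (0.24 to 0.37). Ddit3, which encodes the pro-apoptotic factor CHOP, had 463 and 617 reads (0.18, interval 0.00453 to 0.36). Their intervals leave out 0, but both are far from the ratio of 1 that the rule asks for. Trib3 (ENSMUSG00000032715, chromosome 2, 152337422 to 152344032, minus strand), a pseudokinase that CHOP and ATF4 induce, had 13 and 25 reads, too few to separate the libraries (0.69, with an interval that holds 0). Chac1, an enzyme that degrades glutathione, had 198 and 244 reads (0.07, interval -0.21 to 0.35). Asns, which makes asparagine, had 834 and 1004 reads (0.03, interval -0.10 to 0.17). The intervals of Trib3, Chac1 and Asns thus hold 0. On the wider integrated stress list given below, 4 of 37 measured genes were higher by the rule and 1 lower. Whether ATF4 has a part in the Atf3 difference was not tested.

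The genes of the ER itself differed little in the punches. Xbp1 had the second largest ratio among members with an interval above 0, with 1387 and 2169 reads (0.41, interval 0.31 to 0.51, or 1.33-fold). Hspa5, the ER chaperone BiP, had 5954 and 7664 reads (0.13, interval 0.08 to 0.18). Herpud1, an ER membrane protein of the degradation pathway, had 1048 and 1246 reads (0.02, interval -0.10 to 0.14). Eif2ak3 had 647 and 740 reads (-0.04, interval -0.19 to 0.11). Over the 10 members the median log2 ratio was 0.16, beside 0.01 over all measured genes, and 9 of the 10 ratios were above 0, of which Herpud1 turned to -0.01 with library totals.

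**Figure D2:**
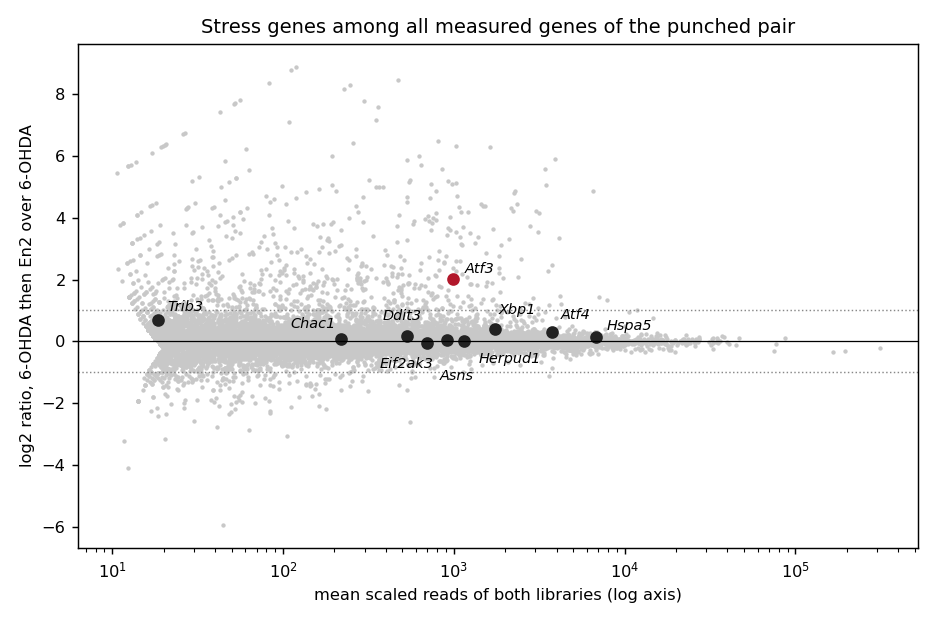
Log2 ratio of 6-OHDA then En2 over 6-OHDA for all 15747 measured genes of the punches, against the mean scaled read count (log axis), with the members marked and dotted lines at a ratio of 1 in each direction. Atf3 lies at 2.03, and the other 9 members lie between -0.04 and 0.69.

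In En1+/- cells, 1 member was higher and 1 lower than in wild type cells by the rule, Eif2ak3 and Chac1. The other members stood within a ratio of 1, and 7 of the 8 measured were above 0, of which Xbp1 (-0.07) and Hspa5 (-0.04) turned below 0 with totals outside mitochondrial and ribosomal RNA. Of all 11500 genes measured in this pair, 20.2% were higher and 14.2% lower, so 1 of 8 in each direction is near that background. The median ratio was 0.32 over the members and 0.10 over all measured genes.

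Eif2ak3, the PERK kinase gene, had 16 reads in wild type cells, 130 in En1+/- cells, 111 contralaterally and 118 on the infused side. The corresponding levels were 10.6, 39.7, 58.2 and 51.1 CPM, so the wild type library stood alone at the low end. The ratio of En1+/- over wild type cells was 2.00 (1.27 to 2.87), or 4.00-fold (2.41 to 7.32). That of the contralateral side over wild type cells was larger, at 2.46 (1.73 to 3.35), with wild type mice in both. Against the contralateral side, En1+/- cells were lower, at -0.47 (-0.85 to -0.10), so the direction depends on which library is the reference. In the punches the gene stood at 40.6 and 38.9 CPM. Eif2ak3 (ENSMUSG00000031668) lies at chromosome 6, 70844515 to 70905245 on the plus strand, and its exons overlap those of Gm43292 on the other strand. The sources used here do not say whether counting used the strand.

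Chac1 had 33 reads in wild type cells, 15 in En1+/- cells, 22 contralaterally and 24 on the infused side, or 21.9, 4.58, 11.5 and 10.4 CPM. The En1+/- library was the lowest of the captured libraries and the wild type library the highest. The ratio between them was -2.09 (-3.12 to -1.22), or 4.25 times lower in En1+/- cells. Against the contralateral side, En1+/- cells were lower by the rule as well, at -1.22 (-2.31 to -0.24). Fewer than 20 reads stand behind the En1+/- value, and both comparisons share it. Chac1 (ENSMUSG00000027313) lies at chromosome 2, 119351229 to 119354381 on the plus strand.

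Atf4 had 380 reads in wild type cells, 1230 in En1+/- cells, 479 contralaterally and 485 on the infused side, or 252, 376, 251 and 210 CPM. The En1+/- library was the highest, with a ratio of 0.69 (0.53 to 0.86) over wild type cells and 0.66 over the contralateral side, and the other 3 lay close to each other. Herpud1 had 54, 194, 75 and 40 reads in the same order, or 35.8, 59.3, 39.3 and 17.3 CPM. Here too the En1+/- library was the highest, at 0.84 (0.40 to 1.31) over wild type cells. Both ratios stay under the size the rule asks for. Herpud1 (ENSMUSG00000031770) lies at chromosome 8, 94386438 to 94395377, and Atf4 (ENSMUSG00000042406) at chromosome 15, 80255184 to 80257541, both on the plus strand.

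The remaining members differed less between En1+/- and wild type cells. Asns had 132 and 330 reads (0.32, interval 0.03 to 0.62). Ddit3 had 76 and 189 reads (0.31, interval -0.08 to 0.72), and its exons overlap those of Mars and Gm4189 on the other strand and of a second gene of the same symbol. Hspa5 had 799 and 1679 reads (0.07, interval -0.05 to 0.19), and Xbp1 had 146 and 302 (0.05, interval -0.24 to 0.34). For Ddit3, Hspa5 and Xbp1 the difference lies within counting error. Ddit3 (ENSMUSG00000025408) lies at chromosome 10, 127290774 to 127296288, and Xbp1 (ENSMUSG00000020484) at chromosome 11, 5520659 to 5525893, both on the plus strand. The authors' deposited table for this pair gives an adjusted p of 1 for all 8 members with reads.

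**Figure D3:**
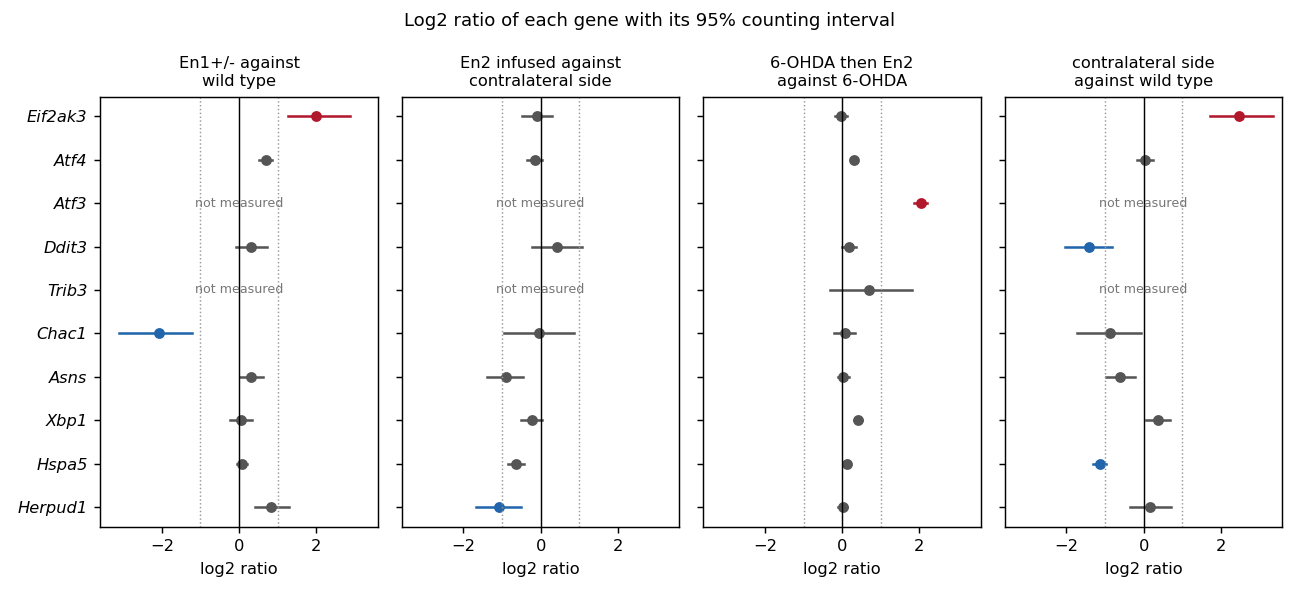
Log2 ratio of each member, second library over first, with its 95% counting interval, in the 3 pairs and for the contralateral side against wild type cells; red and blue mark genes higher and lower by the rule. Eif2ak3 lies at 2.00 in the En1+/- pair and at 2.46 between the contralateral and wild type libraries, and Atf3 lies at 2.03 in the punched pair.

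On the infused side, 7 of the 8 measured members had ratios below 0 against the contralateral side, and 1, Herpud1, was lower by the rule. None was higher. Of all 11361 measured genes, 20.7% were higher and 17.0% lower, so 1 of 8 lower is near that background. The members' median was -0.19, beside 0.08 over all measured genes. Scaled by library totals, which moved the median of all genes up by 0.32, Atf4 (0.16), Xbp1 (0.09), Eif2ak3 (0.23) and Chac1 (0.27) turned above 0 beside Ddit3 (0.74), so the count below 0 rests on the scaling. For 3 members, Herpud1, Asns and Hspa5, the interval lay below 0, and for none above 0, and these 3 ratios were below 0 under library totals too.

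Herpud1 had 75 reads contralaterally and 40 on the infused side, the lowest of the captured libraries, with a ratio of -1.07 (-1.67 to -0.51), or 2.10 times lower. Asns had 107 and 64 reads, or 56.1 and 27.7 CPM, a ratio of -0.91 (-1.38 to -0.45). Hspa5 had 448 and 325 reads, or 235 and 141 CPM, a ratio of -0.63 (-0.85 to -0.43). The infused side held the lowest level of all 3 genes among the captured libraries. Asns (ENSMUSG00000029752) lies at chromosome 6, 7675169 to 7693254 on the minus strand, and Hspa5 (ENSMUSG00000026864) at chromosome 2, 34771970 to 34777547 on the plus strand.

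The other members of this pair had intervals that hold 0. The ratio was -0.15 for Atf4, -0.23 for Xbp1, -0.08 for Eif2ak3 and -0.05 for Chac1. Ddit3 had 35 and 53 reads and the 1 ratio above 0 (0.42, interval -0.22 to 1.09). The 12 microglia and macrophage genes summed to 427 CPM contralaterally and 973 CPM on the infused side, with 7 of 11 measured higher by the rule and 0 lower. The 10 astrocyte genes summed to 8003 and 8254 CPM, and 1 of them was higher by the rule, Gfap, a marker of reactive astrocytes, with 155 and 1092 reads (2.64). The part of these cells in the members' ratios was not tested. Every member in the authors' deposited table for this pair has an adjusted p of 1.

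Differences of the same size separated the libraries with neither a lost En1 allele nor a direct infusion. From wild type cells to the contralateral side, Hspa5 went from 799 to 448 reads, or from 529 to 235 CPM (-1.13, interval -1.30 to -0.97). Ddit3 went from 76 to 35 reads, or from 50.3 to 18.3 CPM (-1.40, interval -2.04 to -0.82). With Eif2ak3 higher, 1 of the 8 members was past the rule upwards and 2 downwards, where 14.1% of all 10742 measured genes were higher and 13.4% lower. For both genes the 2 libraries of the infusion pair lay below the 2 libraries taken at 6 weeks.

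Each manipulated library was also set against the other reference. En1+/- cells over the contralateral side had Ddit3 at 1.72 and Hspa5 at 1.20, both higher, and Chac1 lower, where 22.4% of all genes were higher and 17.6% lower. The infused side over wild type cells had Eif2ak3 at 2.37, higher, and Hspa5 at -1.78 and Asns at -1.52, both lower, where 23.1% were higher and 18.1% lower. Over the captured libraries, the highest level divided by the lowest was 1.32 for Xbp1, 1.79 for Atf4, 3.15 for Ddit3, 3.42 for Herpud1, 3.64 for Asns, 3.76 for Hspa5, 4.77 for Chac1 and 5.49 for Eif2ak3. Xbp1 and Atf4 thus varied least on their most-read transcripts. With all transcripts of Xbp1 summed, its ratio moved from 0.05 to 0.41 in the En1+/- pair and from -0.23 to -0.55 in the infusion pair.

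Because captured reads were counted per transcript, forms of a gene can be read side by side, although a read counts for every transcript it overlaps. The coding transcript Xbp1-201 had a ratio of -0.23 on the infused side, while Xbp1-203 had 66, 189, 116 and 44 reads in wild type, En1+/-, contralateral and infused libraries, a ratio of -1.56 (-2.11 to -1.06) on the infused side. Reads were not assigned to the IRE1-spliced or unspliced form of Xbp1 here. Xbp1-204, with 28, 136, 48 and 25 reads, was higher in En1+/- cells (1.27, interval 0.69 to 1.92) and lower on the infused side (-1.10, interval -1.87 to -0.39). Herpud1-202 (17, 67, 21 and 3 reads) and Herpud1-204 (19, 71, 24 and 3 reads) were lower on the infused side as well, at -2.78 (-5.37 to -1.24) and -2.97 (-5.55 to -1.45). With 3 reads each on that side, their intervals overlap that of the leading transcript. For Eif2ak3, the retained-intron transcript Eif2ak3-202 had 11, 48, 54 and 98 reads. Its infused side ratio was 0.68 (0.19 to 1.19), not past the rule, where the leading transcript stood at -0.08. The retained-intron transcript Asns-204 had 4, 80, 7 and 3 reads, standing apart in En1+/- cells, while Asns-206 had 39, 19, 17 and 11 and was lower there. On the infused side the coding transcripts Asns-203 (-1.50), Asns-205 (-1.32) and Asns-207 (-1.33), each on 10 to 12 reads there, were lower by the rule, while the leading transcript of Asns, at -0.91, was not past it.

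**Figure D4:**
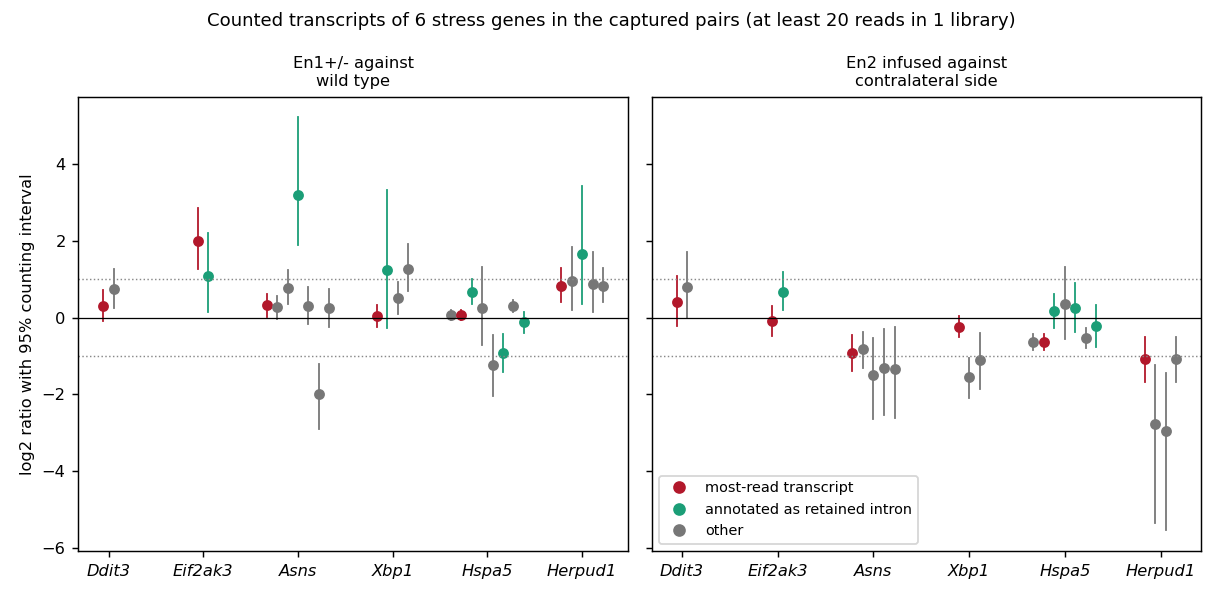
Log2 ratios with 95% counting intervals of the transcripts of 6 members in the En1+/- and infusion pairs, 1 point per transcript with at least 20 reads in 1 library of the pair; red marks the most-read transcript and green a retained intron. On the infused side Herpud1-202 and Herpud1-204 lie at -2.78 and -2.97 and the leading transcript at -1.07, with overlapping intervals.

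A wider list of 39 genes of the integrated stress response was set beside the members. It and the ER folding and degradation list were chosen with earlier results of these data known, so their shares are description only. Of its 37 genes measured in the punches, 4 were higher and 1 lower, or 10.8% and 2.70%, beside 4.66% and 1.23% of all measured genes. The median ratio was 0.10, beside 0.01 over all genes. Eif2ak2, the kinase PKR that senses double-stranded RNA and is induced by interferon, had 270 and 1393 reads (2.13, interval 1.94 to 2.33). Slc7a11, the cystine transporter, had 762 and 2333 reads (1.38). Cebpb, a transcription factor that pairs with ATF4, had 47 and 172 reads (1.63). Ppp1r15a, the GADD34 phosphatase subunit that reverses eIF2 alpha phosphorylation, had 508 and 1258 reads (1.07, interval 0.92 to 1.23). Cth, which makes cysteine from cystathionine, went the other way, with 58 and 29 reads (-1.22). Of the 41 ER folding and degradation genes, 0 passed the rule in either direction, which is near those shares of all genes. Their ratios ran from -0.48 to 0.45 with a median of -0.03.

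In En1+/- cells the integrated stress list held 5 higher and 5 lower genes among 28, or 17.9% each, near the share over all genes, with a median of -0.02. Higher were the transfer RNA synthetase gene Cars (23 and 178 reads, 1.94), Ppp1r15a (9 and 86 reads, 2.21), the amino acid transporter Slc7a5 (32 and 167, 1.37) and the serine synthesis gene Psat1 (221 and 936, 1.08). Lower were the transcription factor Atf5 (71 and 16 reads, -3.09), Ppp1r15b (-1.74), Pck2 (-1.34) and Psph (-1.33). Atf5 was also lower on the contralateral side than in wild type cells, with 8 reads (-3.36), which again sets the wild type library apart. On the ER list 4 of 36 were higher and 4 lower (11.1% each), beside 20.2% and 14.2% of all genes. The median was -0.09, beside 0.10 over all genes. The chaperone partners Sdf2l1 (-3.32), Pdia4 (-2.29) and Dnajb11 (-1.70) and the transcription factor gene Creb3 (-1.44) were lower. The protease gene Mbtps1 (1.18), the degradation factor gene Edem2 (1.66), Manf (1.45) and Creld2 (7 and 41 reads) were higher. Members of this list thus stood on both sides.

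On the infused side the integrated stress list held 3 higher and 3 lower genes among 28, or 10.7% each. Of all genes, 20.7% were higher and 17.0% lower. The list's median was 0.12, which is the same with Cth at its limit. Slc7a5 (71 and 311 reads, 1.95), the mitochondrial serine enzyme gene Shmt2 (7 and 67 reads, 3.00) and Sesn2 (2 and 20 reads, 2.88, interval 1.11 to 6.29) were higher. Shmt2 and Sesn2 reached 20 reads only on the infused side. Shmt2 was also lower contralaterally than in wild type cells (22 and 7 reads, -1.87). Cars (29 and 5 reads, -2.59) and Eif2ak1 (-1.62) were lower. Cth went from 24 reads to 0, at least 9.02-fold lower against a limit of 3 reads. On the ER list 4 of 37 were higher (10.8%) and 6 lower (16.2%), the latter near the share of all genes, and the median was -0.15. The lists are small, and no difference from the shares of all genes was tested. Among the lower were the sensor genes Atf6 (358 and 52 reads, -2.94) and Ern1, which encodes IRE1 (58 and 17 reads, -1.91). Edem2 (26 and 2 reads, -3.56, interval -6.99 to -1.87) and Sdf2l1 (38 and 6 reads, -2.73) were lower too. Dnajb11 (1.35), Creb3 (1.26), Creld2 (5 and 23 reads, 1.93) and Derl1 (1.14) were higher. From wild type cells to the contralateral side, 5 of 36 ER genes were higher (13.9%) and 4 lower (11.1%), near the shares of all genes. Ern1 (1.93), Atf6 (1.10), Creb3l2 (1.25) and Manf (1.43) were among the higher, and Dnajb11 (-2.51), Derl1 (-1.83), Creb3 (-1.71) and Sdf2l1 (-1.02) were lower. Sdf2l1 was thus lower in both comparisons, while Ern1, Atf6, Dnajb11, Derl1 and Creb3 had opposite directions in them. The contralateral library is shared by both comparisons, so these values are not independent.

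**Figure D5:**
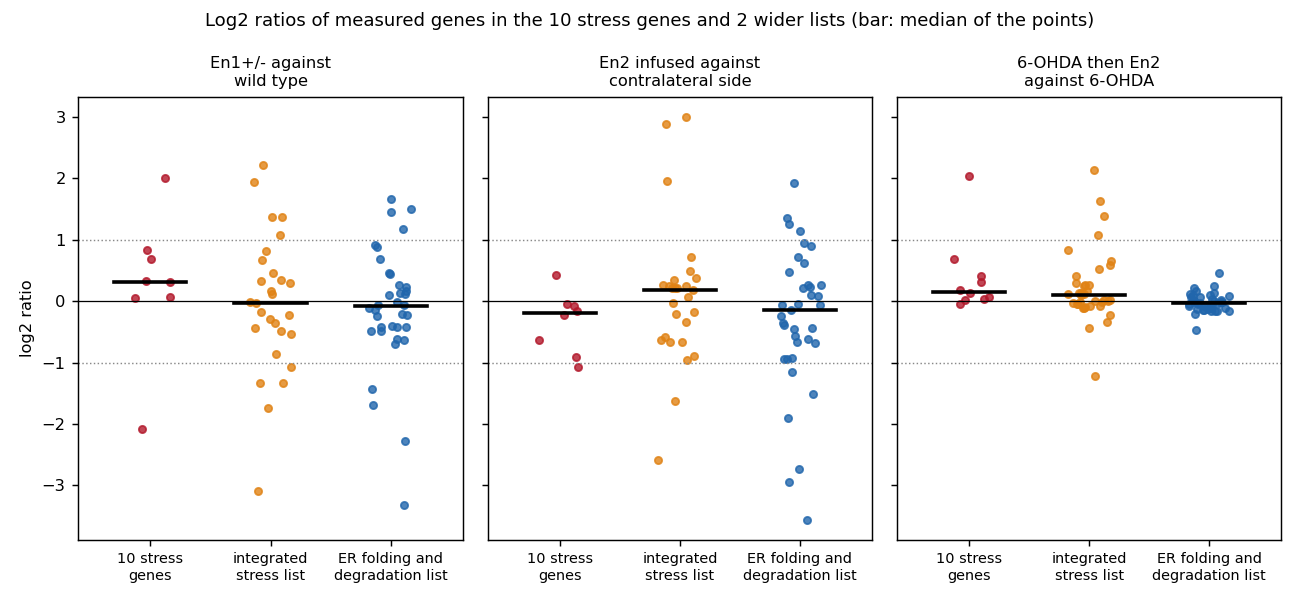
Log2 ratios of the 10 members, the integrated stress list and the ER folding and degradation list in the 3 pairs, 1 point per measured gene with reads in both libraries, a bar at the median of the points and dotted lines at a ratio of 1 in each direction. In the punches the ER genes lie between -0.48 and 0.45, while both lists hold genes below -2 in each captured pair.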

How the data were processed

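Total RNA was sequenced, per the labels' protocols, from 4 laser-captured and 2 punched samples. Tools named in the submitters' processing notes, without roles, are HTSeq, Bowtie and DESeq 1.8.3, and the genome build is mm10. The authors deposited read counts per transcript for captured samples (95533 transcripts) and per gene for punched samples. The authors' deposited comparison tables give p-values made without replicates, log2 fold changes (captured) and linear fold ratios (punched). Their 6 mean columns were not used here. Transcripts without a gene identifier (9402, with 2.93% to 4.78% of counts) were left out, and 4 punched counts standing 1 column to the right were moved back.

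Each captured gene was represented by its most-read transcript. Within a pair, counts were put on 1 scale by the median-of-ratios method, 0.5 was added, and the log2 ratio was given an exact 95% Clopper-Pearson counting interval. Intervals and limits cover counting error only. Positions and transcript lengths came from GENCODE M21 on GRCm38, and promoters from RefSeq. Alternatives were library totals, edgeR TMM, totals outside mitochondrial and ribosomal RNA, other minimum counts, 1 added in place of 0.5, other transcripts and, chosen after seeing the data, at least 20 reads in both libraries and the other reference library. The steps were run on simulated counts that held counting error only, with changes planted only in genes with more reads. Such counts do not cover the spread between replicates. Analyses used Python 3.11.15, pandas 2.3.3, scipy 1.17.1 and edgeR 4.0.16. The members, the lists and the naming rule (up to 4 genes per direction and list with the largest bound) were chosen with earlier results of these data known. With 1 library per group, no test was made.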

Additional observations from a re-analysis of the deposited data

How the results depend on the processing

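In the punches the counts of members past the rule, 1 higher and 0 lower, were the same under all 7 alternatives. In the En1+/- pair the higher count of 1 became 3 with library totals (Atf4, Eif2ak3 and Herpud1), 0 with at least 20 reads in both libraries, and 2 against the contralateral side (Ddit3 and Hspa5). The lower count of 1 (Chac1) became 0 with a minimum of 100 reads, with the second most-read transcript, of which Chac1 has none, and with 20 reads in both. Against the contralateral side Eif2ak3 reversed to -0.47. In the infusion pair the lower count of 1 (Herpud1) became 0 with library totals or a minimum of 100 reads, and 2 with totals outside mitochondrial and ribosomal RNA (Asns and Herpud1), with the second transcript (Herpud1 and Xbp1) or against wild type cells (Asns and Hspa5); the higher count of 0 became 1 against wild type cells (Eif2ak3). Between the contralateral side and wild type cells the higher count of 1 became 0 with 20 reads in both, and the lower count of 2 became 1 with library totals or a minimum of 100 reads. Library totals shifted the median of all genes by 0.59 in the En1+/- pair and 0.32 in the infusion pair. The higher share of genes past the rule then was 82.8% in place of 58.7% and 69.6% in place of 54.9%, and 4 members (Atf4, Xbp1, Eif2ak3 and Chac1) turned above 0 on the infused side. Of the members' values under alternatives, 192 moved by less than their interval, 25 moved further and 1 was classed as reversed, Eif2ak3 against the contralateral side. That class does not count every change of sign. On the infused side with library totals, Atf4 went from -0.15 to 0.16, Xbp1 from -0.23 to 0.09 and Chac1 from -0.05 to 0.27. Over all genes, the En1+/- pair's 2318 higher and 1632 lower became 4322 and 899 with library totals, 1266 and 310 with a minimum of 100 reads, 985 and 1005 with 20 reads in both, 1479 and 935 with the second transcript, and 2841 lower with no minimum. The infusion pair's 2354 and 1933 became 1001 and 470, 1125 and 846, 1406 and 1170, and 3099 lower under the last 4 of these. In the punches 734 and 193 became 484 and 58 with a minimum of 100 reads, 460 and 104 with 20 in both, and 296 lower with no minimum. Between the contralateral side and wild type cells 1518 and 1440 became 416 and 277, 611 and 701, and 905 and 832 with a minimum of 100 reads, 20 in both and the second transcript. Other minimums and the second transcript change how many genes are measured. No paired analysis was possible because each group held 1 library. The captured libraries held 0 reads of Atf3, 0 or 1 of Trib3 and 15 to 33 of Chac1.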
